A study of Mus musculus with 22 samples.

Results

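The 29 genes described here are 18 enzymes of sterol synthesis, 5 genes of the SREBP system that controls them, and 6 enzymes of fatty acid synthesis. They were taken by gene symbol from the 49671 genes of the deposited table of normalised read counts, and sterol and fatty acid genes are reported apart. RNA was sequenced from cultured mouse tumour cells derived from a primary tumour whose genotype includes Lgr5CreER, p53fl/fl and Rosa26-YFP+/+, which every group carries. In such animals a tamoxifen-activated Cre recombinase expressed from Lgr5 deletes p53 and turns on a yellow fluorescent reporter in cells that express Lgr5. The cell of origin of these lines was not tested. Live mCherry+ YFP+ cells were sorted into EPCAM+ and EPCAM- fractions, EPCAM being an epithelial surface protein. A control line and CRISPR/Cas9-derived lines labelled as knockouts of the transcription factors Pitx1, Klf5, Nfatc1 and Creb3l1 were each sampled in both fractions at day 8, and control EPCAM+ cells also at day 0, with 2 libraries in each of 11 groups. The labels do not say what the days count from, what mCherry marks, or whether a line is 1 clone. Nothing states that the 2 libraries of a group are separate cultures, so p-values measure the spread between these libraries, which may be technical.

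Cholesterol is made from acetyl-CoA through the mevalonate pathway, then squalene, then lanosterol and its trimming to cholesterol. The product of Srebf2 is a transcription factor held in the endoplasmic reticulum membrane. When sterols are scarce the escort protein Scap carries it to the Golgi, where it is cut and released to switch on the sterol enzymes, and when sterols are plentiful Insig proteins hold the complex back. The product of Srebf1 works the same way and is best known for switching on fatty acid synthesis.

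Both factors bind sterol regulatory elements, usually beside sites for NF-Y (CCAAT) and Sp1 (GGGCGG). Upstream sequence was taken from RefSeq (GRCm38.p6) for 23 of the 29 genes, as the 250 bases before the annotated start. The classical element, searched as TCACNCCAC on both strands, was in 1 of 15 sterol enzyme genes with an entry, Hmgcs1, in 0 of 4 SREBP system genes and in 0 of 4 fatty acid genes, against 1.05% of all 32851 promoters of that length. CCAAT on either strand was in 14 of 15 sterol enzyme genes, 3 of 4 SREBP system genes and 1 of 4 fatty acid genes, against 33.8% of all promoters. GGGCGG on either strand was in 14 of 15, 4 of 4 and 1 of 4, against 32.7%. Some genes have several promoter entries, and the shares of all promoters count entries rather than genes. Counted by entry, CCAAT was in 14 of 18 for the sterol enzymes and 4 of 7 for the SREBP system. GGGCGG was in 15 of 18 and 5 of 7 by entry, and the classical element in 1 of 18 and 0 of 7. A match describes the letters in this window and is no evidence of binding. The stretches below belong to 3 sterol enzymes and the SREBP gene that were lower in EPCAM- cells, with Fasn, which did not pass the test, for comparison. Capitals mark matches to these 3 motifs. Each stretch is the longest run of the 250 bases without an exon annotated in GENCODE M21, cut to at most 200 bases. Matches elsewhere in the 250 bases, if any, are not shown. The Hmgcs1 stretch is chr13:119690151-119690350 (+), with the sterol element starting 137 bases before the start. The Cyp51 stretch is chr5:4104747-4104946 (-), that of Hsd17b7 is chr1:169969242-169969408 (-), that of Srebf2 is chr15:82147019-82147180 (+) and that of Fasn is chr11:120824548-120824747 (-), where a CCAAT and an ATTGG overlap.
Hmgcs1: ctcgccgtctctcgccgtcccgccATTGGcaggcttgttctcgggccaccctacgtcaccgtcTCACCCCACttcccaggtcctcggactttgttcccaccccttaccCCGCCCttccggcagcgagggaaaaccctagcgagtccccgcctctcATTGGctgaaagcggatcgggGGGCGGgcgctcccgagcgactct
Cyp51: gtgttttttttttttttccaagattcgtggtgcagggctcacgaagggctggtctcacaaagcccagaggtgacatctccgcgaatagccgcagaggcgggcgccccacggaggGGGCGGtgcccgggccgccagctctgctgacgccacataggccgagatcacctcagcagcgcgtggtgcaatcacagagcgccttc
Hsd17b7: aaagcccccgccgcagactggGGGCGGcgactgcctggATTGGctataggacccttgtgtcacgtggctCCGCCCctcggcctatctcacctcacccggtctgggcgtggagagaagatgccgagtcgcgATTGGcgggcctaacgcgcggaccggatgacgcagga
Srebf2: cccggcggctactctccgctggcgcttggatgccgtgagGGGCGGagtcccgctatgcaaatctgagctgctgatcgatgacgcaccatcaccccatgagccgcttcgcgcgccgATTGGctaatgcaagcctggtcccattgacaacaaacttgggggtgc
Fasn: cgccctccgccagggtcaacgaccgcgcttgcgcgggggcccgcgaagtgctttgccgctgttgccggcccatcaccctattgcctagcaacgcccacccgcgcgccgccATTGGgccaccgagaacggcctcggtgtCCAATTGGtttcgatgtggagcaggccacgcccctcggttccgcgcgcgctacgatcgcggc

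All 29 genes were expressed in all 22 libraries and passed the filter on low values. The lowest value of any of them was 62 and the highest 43416, on a scale on which every library sums to between 20007331 and 20014236. Per kilobase of annotated exon, the mean level over 22 libraries was highest for the fatty acid desaturase Scd2 at 5266 normalised counts per kilobase, followed by Fasn at 1142, Acly at 1022, Cyp51 at 934 and Srebf2 at 788. The lowest were the sterol reductase Tm7sf2 at 56.6 and the mevalonate enzyme Mvd at 74.6. Over the libraries the highest value was 6.81 times the lowest for Mvd and 5.26 times for Cyp51, and only 1.55 times for Scap, 1.58 times for Srebf1 and 1.64 times for Acaca. In 19 of the 29 genes the highest library was replicate 2 of control day 0.

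The reads recovered behind the values numbered 6054892 to 9882670 per library. Epcam read 3702 to 7320 in the 10 EPCAM+ and 90 to 735 in the 10 EPCAM- libraries at day 8. Of the targeted genes, Pitx1 read 1205 to 1627 in its own knockout libraries and 4358 to 6438 in control at day 8, and Nfatc1 182 to 249 against 488 to 981. Klf5 read 1961 to 2247 in the libraries labelled Klf5 knockout and 1733 to 2941 in control, so its RNA does not set those libraries apart. Creb3l1 read 0 to 6 in its knockout, and 137 and 26 in control EPCAM- cells, but it was at 0 in both control EPCAM+ libraries, where it checks nothing. In EPCAM- cells of the other knockouts Creb3l1 read 8 and 3 (Pitx1), 8 and 5 (Klf5) and 0 and 0 (Nfatc1). Its RNA therefore does not set its own knockout apart from those lines.

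**Figure D1:**
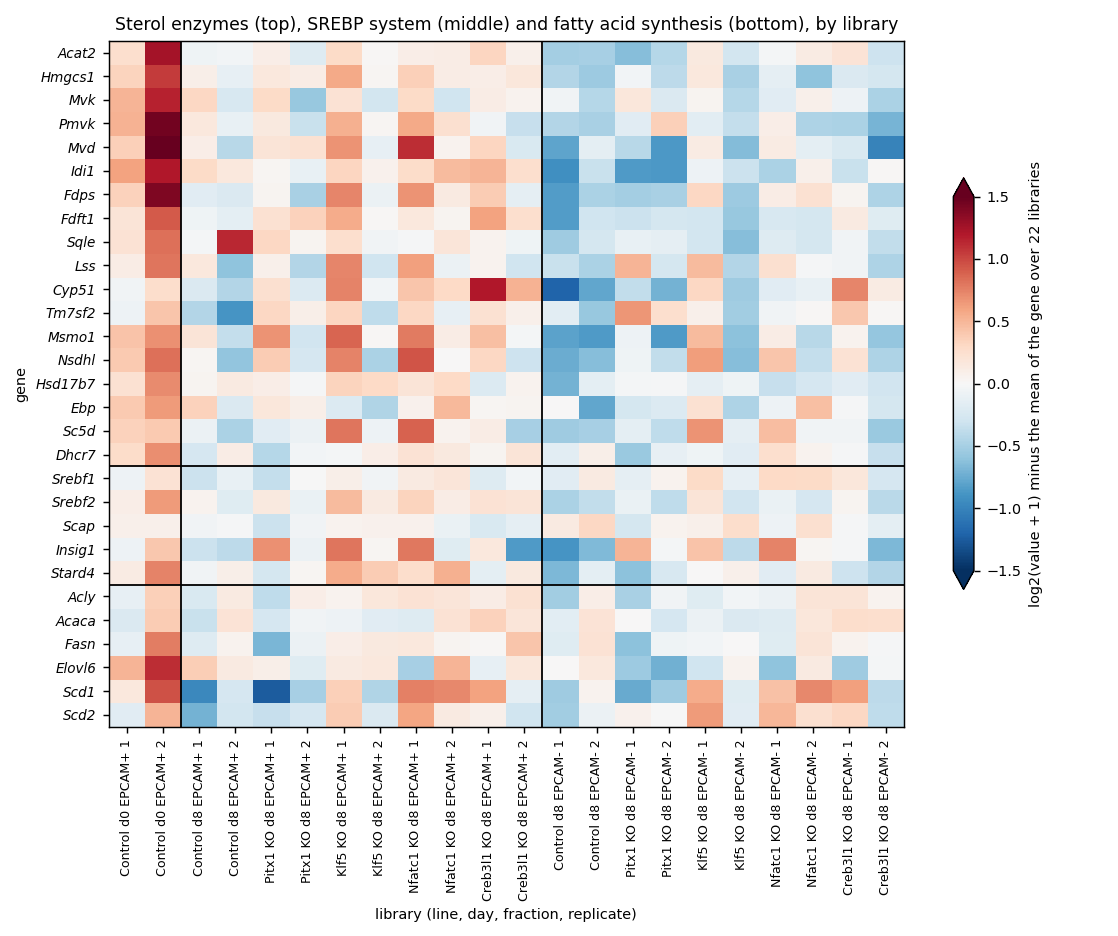
Each of the 29 genes (rows) in each of the 22 libraries (columns): log2(value + 1) minus the mean of that gene over all libraries, with colours saturating at 1.5. Vertical lines divide day 0, day 8 EPCAM+ and day 8 EPCAM-, and the sterol rows are mostly red at day 0 replicate 2 and mostly blue in EPCAM- cells.

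The first comparison asked how the fractions of a line differ. Sterol synthesis genes were lower in EPCAM- than in EPCAM+ cells: over the 5 lines 6 of 18 sterol enzymes fell, together with 2 of 5 SREBP system genes, Srebf2 and the sterol carrier Stard4, and none of the 29 rose. Of 6 fatty acid genes 0 passed the test. The falls were of modest size, from 1.26-fold for Hsd17b7 to 1.52-fold for Idi1. Across all 19569 genes tested 6.22% were called in this comparison (536 rose and 682 fell), against 8 of these 29. Calls are at a limma adjusted p (Benjamini-Hochberg over all genes tested) below 0.05. In bulk RNA, fewer cells of a type and less RNA per cell cannot be told apart.

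The mevalonate steps come first. Idi1 (chr13:8885501-8892451), the isomerase that makes the reactive isoprene unit, read in EPCAM+ cells, as replicates 1 and 2, 757 and 691 in control, 634 and 572 in Pitx1 knockout, 775 and 650 in Klf5, 749 and 863 in Nfatc1 and 884 and 737 in Creb3l1. In EPCAM- cells, in the same order, it read 328 and 493, 343 and 341, 587 and 497, 446 and 654, and 491 and 627. EPCAM- was lower in 10 of 10 same-numbered pairs, although the highest EPCAM- library (654) lay above the lowest EPCAM+ libraries, so the pooled groups overlapped. The log2 difference was -0.63 ± 0.11 (SE, 10 libraries a fraction; limma adjusted p = 0.0016).

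Hmgcs1 (chr13:119690379-119708260), the cytosolic HMG-CoA synthase, takes the step after Acat2. It read in EPCAM+ cells 1634 and 1413 in control, 1717 and 1665 in Pitx1 knockout, 2280 and 1567 in Klf5, 1979 and 1662 in Nfatc1 and 1645 and 1735 in Creb3l1. Its EPCAM- values were 1138 and 1051, 1499 and 1172, 1719 and 1100, 1400 and 1015, and 1320 and 1287, lower in 10 of 10 pairs, with a log2 difference of -0.45 ± 0.11 (limma adjusted p = 0.0236). The other mevalonate genes did not pass: the thiolase Acat2 at -0.29, Mvk at -0.15, Pmvk at -0.37, Mvd at -0.59 and the farnesyl pyrophosphate synthase Fdps at -0.35 on the log2 scale. EPCAM- was lower in 8 or 9 of 10 pairs in each of them.

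Fdft1 and Sqle make squalene and then its epoxide, the committed steps toward sterols. Fdft1 (chr14:63145150-63179578), the squalene synthase, read 1058 and 994, 1297 and 1400, 1621 and 1121, 1226 and 1137, and 1677 and 1312 in EPCAM+ cells of the 5 lines in the order above. It read 619 and 895, 883 and 915, 908 and 744, 934 and 922, and 1212 and 974 in EPCAM- cells. The fractions of each line did not overlap, and the log2 difference was -0.51 ± 0.11 (limma adjusted p = 0.00804).

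Sqle (chr15:59315077-59331192), the squalene epoxidase, read in EPCAM+ cells 1608 and 3598, 2050 and 1690, 1959 and 1594, 1628 and 1867, and 1709 and 1569. The EPCAM- libraries read 1140 and 1369, 1528 and 1499, 1358 and 1054, 1443 and 1371, and 1584 and 1277. The 3598 of control EPCAM+ replicate 2 stands far above every other library at day 8, and EPCAM- was lower in 10 of 10 pairs. The log2 difference was -0.46 ± 0.13 (limma adjusted p = 0.0394).

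Of the 9 enzymes from the cyclase Lss, which makes lanosterol, onward, Cyp51 and Hsd17b7 fell. Cyp51 (chr5:4081145-4104746), the lanosterol demethylase and the sterol enzyme with the highest mean, read in EPCAM+ cells 3292 and 2821 in control, 4522 and 3324 in Pitx1 knockout, 6424 and 3729 in Klf5, 5107 and 4734 in Nfatc1 and 8798 and 5531 in Creb3l1. Its EPCAM- values were 1673 and 2234, 2967 and 2344, 4748 and 2662, 3408 and 3553, and 6392 and 4189, lower in 10 of 10 pairs, with a log2 difference of -0.52 ± 0.14 (limma adjusted p = 0.0358). Within EPCAM- alone the lines spanned 1673 to 6392.

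Hsd17b7 (chr1:169949535-169969241), a ketosteroid reductase, read 1131 and 1210, 1181 and 1088, 1390 and 1352, 1259 and 1355, and 958 and 1142 in EPCAM+ cells. It read 676 and 996, 1081 and 1089, 1002 and 1052, 868 and 925, and 976 and 900 in EPCAM- cells. EPCAM- was lower in 8 of 10 pairs, the exceptions being Pitx1 replicate 2 and Creb3l1 replicate 1, where the values were close. The log2 difference was -0.34 ± 0.08 (limma adjusted p = 0.0227).

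Msmo1, a sterol methyl oxidase, had a larger difference, -0.59 ± 0.19, was lower in 10 of 10 pairs, and missed the threshold (limma adjusted p = 0.086). Its values spanned 1939 to 4548 in EPCAM+ and 1376 to 3467 in EPCAM- cells, with medians of 2765 and 1764. With the replicate number as a term in the fit (the replicate block), Msmo1 was called as well, so 9 of 29 genes fell, against 10.1% of all genes. The remaining late enzymes did not pass: Lss at -0.07, Nsdhl at -0.28, Ebp at -0.17, Sc5d at -0.17 and Dhcr7 at -0.11. Tm7sf2 at +0.06 was the 1 sterol enzyme of 18 with a positive difference.

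Among the SREBP system genes, Srebf2 (chr15:82147181-82205379) read in EPCAM+ cells 5769 and 4911, 6131 and 5183, 7718 and 6067, 6997 and 5986, and 6437 and 6321. The EPCAM- libraries read 4007 and 4288, 5191 and 4266, 6338 and 4547, 5175 and 4666, and 5730 and 4179, lower in 10 of 10 pairs, with a log2 difference of -0.35 ± 0.10 (limma adjusted p = 0.0361). Srebf2 RNA thus moved in the same direction as the enzymes its product controls, and a link between the 2 was not tested. Srebf1, the fatty acid factor, had a difference of +0.13 ± 0.08 and was higher in EPCAM- in 8 of 10 pairs, without passing the test.

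Stard4, which carries sterols between membranes, read 724 and 799, 628 and 767, 1105 and 980, 905 and 1094, and 680 and 834 in EPCAM+ cells. It read 471 and 679, 492 and 640, 760 and 794, 671 and 826, and 606 and 555 in EPCAM- cells. EPCAM- was lower in 10 of 10 pairs and the log2 difference was -0.39 ± 0.10 (limma adjusted p = 0.0333). Scap, at +0.13, was higher in EPCAM- in 8 of 10 pairs, and Insig1, at -0.16, was lower in 7 of 10. Neither passed the test.

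**Figure D2:**
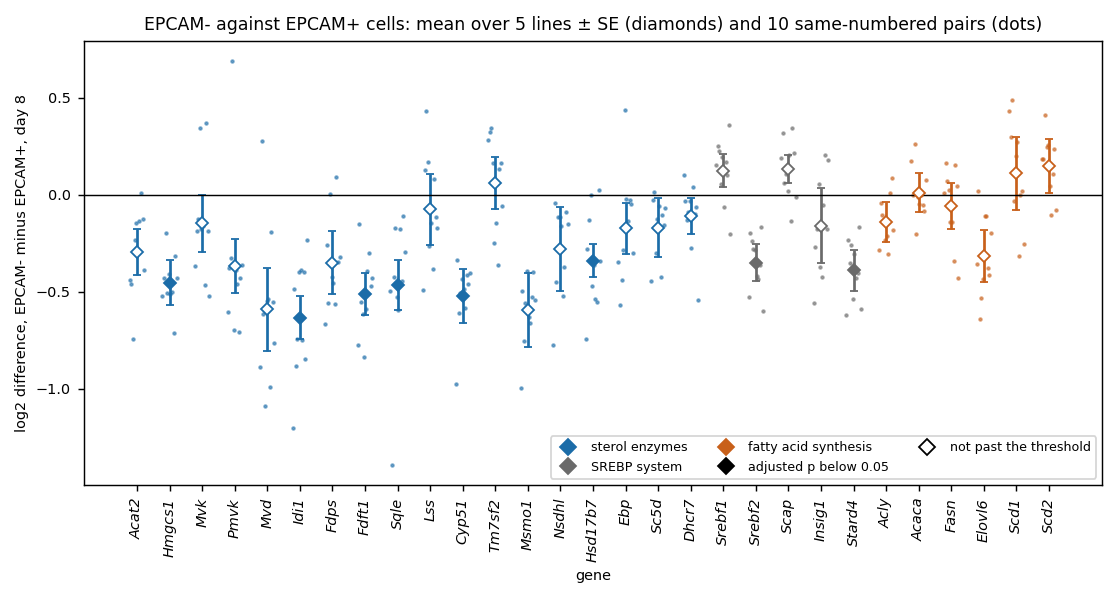
The log2 difference between EPCAM- and EPCAM+ cells at day 8 for each gene: diamonds are the mean over 5 lines with its SE, filled where the adjusted p was below 0.05, and dots are the 10 same-numbered pairs. The filled diamonds are 6 sterol enzymes, Srebf2 and Stard4, all below 0, while 3 of the 6 fatty acid genes lie above 0 and 3 below.

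The fatty acid genes showed no common direction between the fractions. The median log2 difference was -0.02 for the 6 fatty acid genes and -0.34 for the 18 sterol enzymes, against +0.06 over all genes tested. Scd2 (chr19:44293674-44306864), a stearoyl-CoA desaturase and the fatty acid gene with the highest mean, read in EPCAM+ cells 17045 and 22973, 21825 and 23405, 36384 and 23887, 42029 and 30594, and 29368 and 22592. In EPCAM- cells it read 19406 and 26161, 29018 and 27792, 43416 and 24692, 39167 and 32988, and 34570 and 21432. EPCAM- was higher in 8 of 10 pairs, with a log2 difference of +0.15 ± 0.14, and the fractions overlapped.

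Fasn, the fatty acid synthase, had a difference of -0.06 and medians of 12673 in EPCAM+ and 12042 in EPCAM- cells. Acly, which makes cytosolic acetyl-CoA, differed by -0.14, the carboxylase Acaca by +0.01 and the desaturase Scd1 by +0.11. The elongase Elovl6, at -0.31 ± 0.14, was the 1 fatty acid gene of 6 at an unadjusted p below 0.05. The count of 0 of 6 came from limma, and voom on the recovered reads also called 0.

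The labels' batch tag gives libraries of the same replicate number a common name, so the fractions of a line can be paired. With each line and replicate as a pair (a replicate block by line), 18 of the 29 genes were called, against 22.7% of all genes (2661 rose and 1789 fell). These were 13 sterol enzymes, Srebf2, Stard4, Acly and Elovl6, which fell, and Scd2, which rose. In that fit Msmo1 had an adjusted p of 4.4e-08, Elovl6 0.000393, Scd2 0.0133 and Acly 0.037. Without pairs, leaving out 1 library changed the count of 8: it was 3 without Klf5 EPCAM+ replicate 1, Klf5 EPCAM- replicate 2, Nfatc1 EPCAM- replicate 1 or Creb3l1 EPCAM+ replicate 2. It was 4 without control EPCAM- replicate 1, Pitx1 EPCAM- replicate 2, Nfatc1 EPCAM- replicate 2 or Creb3l1 EPCAM- replicate 2, and 5 without control, Pitx1 or Creb3l1 EPCAM+ replicate 1 or Nfatc1 EPCAM+ replicate 2. Idi1 and Fdft1 were called in all 27 alternative fits.

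Over the 10 pairs, EPCAM- was the lower in 87.2% of the comparisons of a sterol enzyme within a pair, in 53.3% of those of a fatty acid gene and in 43.7% of those of all genes tested. Of 18 sterol enzymes 7 were lower in all 10 pairs, as were 4.69% of all genes. Within a pair, between 12 and 18 of the 18 enzymes were lower in EPCAM-, the fewest in Pitx1 knockout replicate 2 and all 18 in replicate 2 of Klf5 and of Creb3l1.

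Other gene lists moved with the sort. All 12 epithelial markers, Epcam included, fell (median log2 difference -2.53), and their summed level was 42754 to 63815 in EPCAM+ and 16297 to 27078 in EPCAM- libraries. Of 10 mesenchymal markers 6 rose, with sums of 25038 to 138399 and 120588 to 179661. Of 10 cell cycle genes 0 were called (limma; 0 at an unadjusted p below 0.05; 0 by voom), 10 of 10 were lower in EPCAM- (median -0.19), and the sums were 38039 to 77696 and 37859 to 78712. Markers of fat and sebaceous cells, which make lipid, summed to 55 to 114 and 71 to 125 over 10 genes, with Awat1 at 0 in every library. Immune markers summed to 167 to 360 and 141 to 272 over 8 genes, with Cd3e at 0, and endothelial markers to 69 to 203 and 65 to 431 over 5 genes. The part of these genes in the sterol result was not tested.

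Within each line taken alone, 0 of the 29 genes were called by limma in any of the 5, and 0 by voom. The control line had 0.644% of all genes called, the Pitx1 line 0.317%, the Klf5 line 0.286%, the Nfatc1 line 0.429% and the Creb3l1 line 0.291%. At an unadjusted p below 0.05 stood 3, 2, 2, 3 and 1 of the 29, against 1404, 1193, 749, 1801 and 893 of all 19569 genes tested. In that order the sterol enzymes had median log2 differences of -0.46, -0.29, -0.41, -0.33 and -0.32, with 16, 14, 17, 18 and 17 of 18 below 0. Those of the fatty acid genes were +0.09, +0.04, -0.08, -0.12 and -0.08.

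With the fractions paired (a replicate block by line), 7 genes were called in control, against 7.01% of all genes, namely Cyp51, Fdft1, Hmgcs1, Hsd17b7, Idi1, Msmo1 and Sqle. In Pitx1 knockout 6 were called, against 4.79%: Cyp51, Fdft1, Idi1, Msmo1 and Elovl6 fell and Scd2 rose. Cyp51, Fdft1, Hmgcs1 and Msmo1 made up the 4 called in Klf5, against 2.19%, and Cyp51, Hmgcs1, Hsd17b7, Msmo1 and Srebf2 the 5 called in Nfatc1, against 6.08%. In Creb3l1 Msmo1 was the 1 gene called, which is 3.45% of the 29 and near the 3.19% of all genes. Msmo1 was thus called in all 5 lines in the paired fit, with log2 differences from -0.47 in Creb3l1 to -0.74 in control.

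The fraction difference of a knockout was tested against that of control by interaction terms. None of the 29 genes was called in any of the 4 (limma; 0 at an unadjusted p below 0.05; 0 by voom), and 0 of 19569 genes were called at all. The interaction values ranged over the genes from -0.55 to +0.67 for Pitx1 and from -0.48 to +0.74 for Creb3l1. With the fractions paired (a replicate block by line, an alternative added after seeing the data) the Pitx1 interaction had 17 of 19569 genes called, that of Klf5 3, that of Nfatc1 0 and that of Creb3l1 0. None of the 29 was among them, with 5, 1, 3 and 2 at an unadjusted p below 0.05 and a lowest limma adjusted p of 0.418. A difference between the lines in these genes was not shown by either fit, which does not show that the lines are alike.

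**Figure D3:**
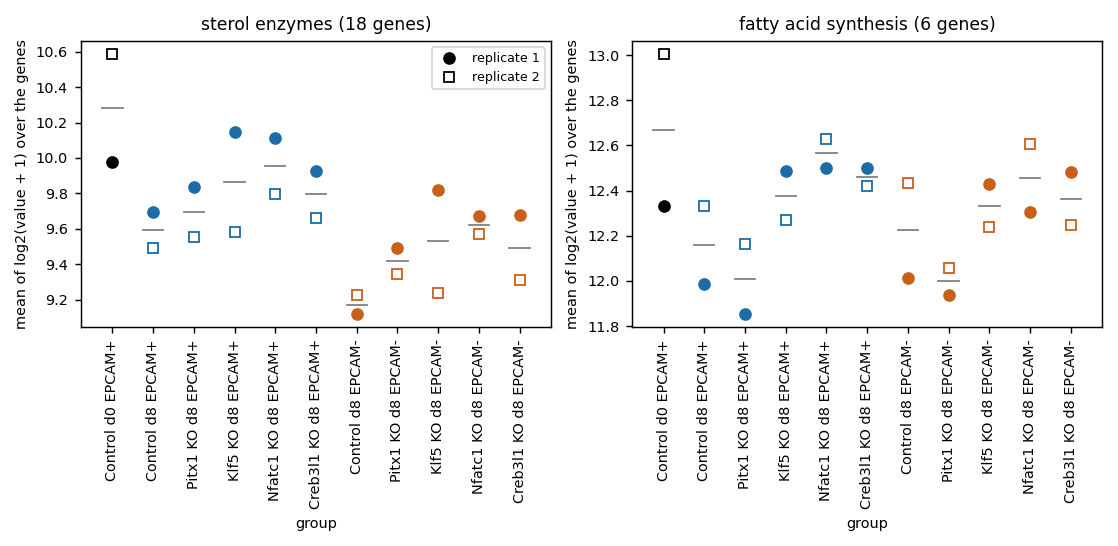
The mean of log2(value + 1) over 18 sterol enzymes (left) and 6 fatty acid genes (right) in each library, with filled circles for replicate 1, open squares for replicate 2 and grey bars for group means. In the left panel the EPCAM- groups (orange) lie below the EPCAM+ groups (blue) of the same line and the day 8 control groups are the lowest of their fraction at day 8, while control day 0 (black) is the highest group, and in the right panel the Pitx1 knockout groups are the lowest.

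The knockouts were then compared with control at day 8, as the mean over both fractions. Cyp51 rose 2.49-fold in Creb3l1 knockout and Tm7sf2 rose 1.79-fold in Pitx1 knockout, and no other of the 29 genes was called in any knockout. The 4 comparisons share the same 4 control libraries, so they are not independent of each other. Pitx1 knockout had 4.28% of all genes called and 1 of the 29, the Klf5 label 0.557% and 0, Nfatc1 knockout 0.0460% and 0, and Creb3l1 knockout 0.945% and 1. For Pitx1 knockout the share of the 29 called was thus below that of all genes.

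In Creb3l1 knockout the Cyp51 values listed above, 8798 and 5531 in EPCAM+ and 6392 and 4189 in EPCAM-, all lay above the 4 control values of 1673 to 3292. The log2 difference was 1.31 ± 0.22 (SE; limma adjusted p = 0.0066), and it was called in all 14 alternative fits. Within replicate numbers it was 1.68 and 0.94. In EPCAM+ cells alone the difference was 1.19 (limma adjusted p = 0.271) and in EPCAM- cells alone 1.42 (limma adjusted p = 0.105). With the replicate block the latter was called (limma adjusted p = 0.0226). In this knockout 2 of 10 mesenchymal markers fell, Cdh2 at -3.67 and Prrx1 at -0.69 on the log2 scale, and 0 of 12 epithelial markers were called (limma; 2 at an unadjusted p below 0.05; 0 by voom). Their part in the Cyp51 result was not tested.

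Cyp51 was higher than control in the other knockouts too, by 0.40 (Pitx1), 0.78 (Klf5) and 0.77 (Nfatc1) on the log2 scale, without passing the test. It was the 1 gene of the 29 in which all 16 knockout libraries lay above both control libraries of their fraction, as did 0.322% of all genes. Tm7sf2 came closest, above both controls in 8 of 8 EPCAM+ and 7 of 8 EPCAM- knockout libraries.

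Tm7sf2 (chr19:6062821-6068373), a sterol reductase, read in EPCAM+ cells 178 and 130 in control, 301 and 258 in Pitx1 knockout, 303 and 186 in Klf5, 300 and 222 in Nfatc1 and 284 and 255 in Creb3l1. Its EPCAM- values were 217 and 163, 382 and 289, 255 and 168, 233 and 244, and 319 and 245. The 4 Pitx1 values lay above all 4 control values, and the log2 difference was 0.84 ± 0.21 (limma adjusted p = 0.0332). The call ended when only the compared groups were fitted, and without control replicate 2 of either fraction or any 1 of the 4 Pitx1 libraries. The values rest on 48 to 156 recovered reads a library.

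The replicate block added calls in every knockout. In Pitx1 knockout Insig1, which holds the SREBP complex in the endoplasmic reticulum, joined Tm7sf2 at 0.84 ± 0.22 (limma adjusted p = 0.0229). These 2 of 29 were a smaller share than the 8.77% of all genes called there. Insig1 read 1155 and 675 in EPCAM+ and 1022 and 702 in EPCAM- cells of that knockout, against 572, 545, 388 and 452 in control. Its log2 difference was of like size without a call in Nfatc1 knockout, at 0.91, and in the libraries labelled Klf5 knockout, at 0.78. Replicate 1 carried more of it than replicate 2 in each: 1.20 and 0.47 in the Pitx1 line, 1.37 and 0.45 in the Nfatc1 line and 1.21 and 0.34 in the Klf5 line. In the Creb3l1 line the Insig1 difference was 0.67 in replicate 1 and -0.24 in replicate 2. In Klf5 Cyp51 and the desaturase Sc5d were called (2 of 29, against 1.62%), in Nfatc1 Sc5d (1 of 29, against 0.950%), and in Creb3l1 Tm7sf2 beside Cyp51 (2 of 29, against 2.27%).

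Sc5d read 1954 and 1793 in replicate 1 but 1065 and 1024 in replicate 2 of the libraries labelled Klf5 knockout, EPCAM+ before EPCAM-, against 776 to 1055 in control. In Nfatc1 knockout it read 2077 and 1548 in replicate 1 and 1163 and 1081 in replicate 2. All 4 Nfatc1 values lay above the control range, while the 1024 of Klf5 EPCAM- replicate 2 lay within it. The log2 differences in the block fit were 0.71 (limma adjusted p = 0.0294) and 0.73 (adjusted p = 0.0355).

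As groups, the sterol enzymes had medians above 0 in every knockout: the Pitx1 median was 0.19, that of Klf5 0.32, that of Nfatc1 0.37 and that of Creb3l1 0.17 (log2), with 14, 15, 17 and 16 of 18 enzymes above control and an all-gene median between -0.03 and 0.02. For the fatty acid genes the medians were -0.23, 0.10, 0.16 and 0.28. Within replicate numbers the fatty acid median was 0.26 and -0.06 for Klf5 and 0.54 and -0.03 for Creb3l1, so it was above 0 in replicate 1 alone. It was -0.16 and -0.29 for Pitx1 and 0.30 and 0.12 for Nfatc1. For the libraries labelled Klf5 knockout the sterol median within replicate numbers was 0.52 in replicate 1 and 0.08 in replicate 2. In both fractions of those libraries 17 of 18 sterol enzymes were higher in replicate 1 than in replicate 2. For Nfatc1 knockout the sterol medians within replicate numbers were 0.43 and 0.37, with 16 and 17 of 18 enzymes above control. For Pitx1 knockout they were 0.25 and 0.095, with 15 and 10 of 18 above control. Creb3l1 knockout had 0.36 and 0.15, with 15 and 12 of 18. The rise was thus smaller in replicate 2 of each knockout.

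Scd1, a stearoyl-CoA desaturase, had the largest knockout difference of the fatty acid genes. It read 5004 and 4886 in EPCAM+ and 4019 and 4891 in EPCAM- cells of Nfatc1 knockout, all above the control values of 1512 and 2491 in EPCAM+ and 2044 and 3066 in EPCAM- cells. The log2 difference was 1.09 ± 0.30, which did not pass (limma adjusted p = 0.223). In Klf5 and Nfatc1, 6 and 10 of the 29 genes had an unadjusted p below 0.05, against 2369 and 2053 of all 19569 genes tested. Beside these stood the count of 0 called, and voom also called 0.

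**Figure D4:**
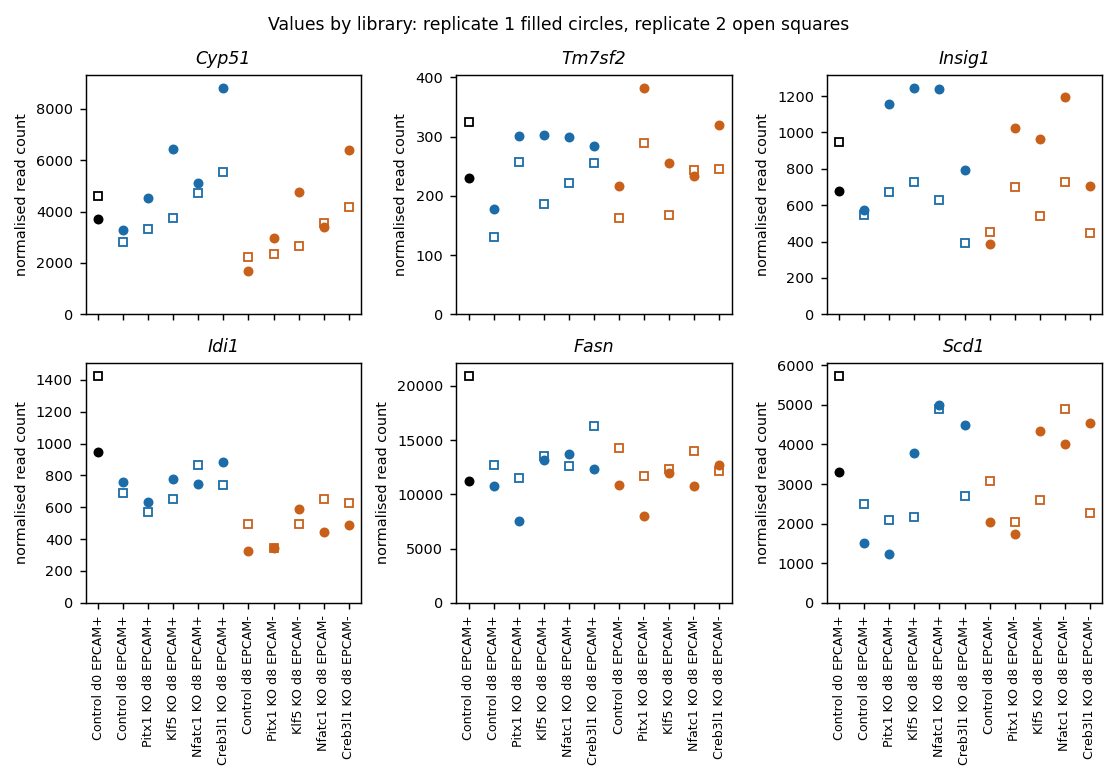
Normalised read counts of 6 genes in every library, by group, with the axis from 0; black is control day 0, blue EPCAM+ and orange EPCAM- at day 8. At day 8 the Cyp51 group mean is highest in Creb3l1 knockout in each fraction (8798 and 5531, then 6392 and 4189), Tm7sf2 in Pitx1 knockout lies above control in both fractions, and Idi1 and Scd1 are highest in day 0 replicate 2.

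Within a single fraction no gene of the 29 was called in any knockout (limma and voom). In EPCAM+ cells Pitx1 knockout had 0.409% of all genes called, the Klf5 label 0.0511%, Nfatc1 knockout 0% and Creb3l1 knockout 0.194%. At an unadjusted p below 0.05 were 1, 2, 5 and 3 of the 29, against 2022, 1369, 1467 and 1172 of all 19569 genes tested. In EPCAM- cells the shares called were 0.915%, 0.153%, 0% and 0.261%. The counts at an unadjusted p below 0.05 were 4, 2, 5 and 2 of the 29, against 2052, 1118, 734 and 1180 of 19569. With the replicate block Cyp51 in Creb3l1 EPCAM- cells was the 1 call, against 0.434% of all genes.

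The last comparisons set control day 8 against day 0, which exists for EPCAM+ cells alone. Between day 0 and day 8 in EPCAM+ cells 0 of 29 genes were called and 0% of all genes, while 28 of 29 lay below 0. For the sterol enzymes 17 of 18 were below 0 with a median log2 difference of -0.68, and for the fatty acid genes 6 of 6 with a median of -0.47, against an all-gene median of 0. The largest were Mvd at -1.21, Scd1 at -1.16 and Fdps at -1.07. At an unadjusted p below 0.05 there were 11 of 29 genes and 831 of 19569, and voom called 0 of 29. With the replicate block 0 of 29 were called, against 0.0102%. The mesenchymal markers (0 of 10 called, median 0.76) and epithelial markers (0 of 12, median -0.14) were not called either (limma; 2 and 1 at an unadjusted p below 0.05).

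The size of this difference depended on 1 library: in all 29 genes day 0 replicate 2 was above replicate 1, by a median of 0.60 (log2) in the sterol enzymes and 0.64 in the fatty acid genes. Without day 0 replicate 2 the sterol median was -0.37 and the fatty acid median -0.10, and without replicate 1 they were -1.02 and -0.84. Within replicate 1 the sterol median was -0.26 and within replicate 2 -1.12.

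Against day 0 EPCAM+ cells, control EPCAM- cells of day 8 had lower sterol genes: 7 of 18 enzymes fell, Idi1, Hsd17b7, Acat2, Hmgcs1, Fdft1, Pmvk and Fdps. By the test 2.01% of all genes were called. All 18 enzymes had both EPCAM- libraries below both day 0 libraries, as had 19.5% of all genes, and their median log2 difference was -1.11. Of the fatty acid genes 0 of 6 were called (limma; 1 at an unadjusted p below 0.05; 0 by voom), with a median of -0.40. This comparison joins time and sort, which cannot be told apart in it, and shares libraries with both control comparisons above.

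Idi1 had the smallest adjusted p, reading 945 and 1422 at day 0 against 328 and 493 (2.88-fold lower, log2 difference -1.53 ± 0.25; limma adjusted p = 0.00305). Hsd17b7 read 1295 and 1804 against 676 and 996, Hmgcs1 1946 and 3195 against 1138 and 1051, and Fdft1 1265 and 2088 against 619 and 895. These 3 fell by 0.90, 1.19 and 1.13 on the log2 scale.

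Acat2 (chr17:12942890-12960747), which joins acetyl-CoA units, read 833 and 1670 at day 0 and, in EPCAM+ cells at day 8, 669 and 683, 753 and 612, 855 and 706, 752 and 757, and 877 and 737 in the order control, Pitx1, Klf5, Nfatc1 and Creb3l1. The EPCAM- libraries read 493 and 496, 450 and 520, 772 and 578, 686 and 761, and 804 and 563. The control EPCAM- values lay below day 0 by -1.25 ± 0.27 (log2; limma adjusted p = 0.0196).

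Pmvk (chr3:89454541-89469013), the phosphomevalonate kinase, read 370 and 702 at day 0, 288 and 239, 286 and 204, 374 and 263, 381 and 304, and 249 and 203 in EPCAM+ cells. Its EPCAM- values were 189 and 184, 228 and 330, 230 and 201, 277 and 186, and 185 and 158. Its control EPCAM- cells fell by 1.45 on the log2 scale (limma adjusted p = 0.0217).

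Fdps (chr3:89093588-89101959) makes farnesyl pyrophosphate, the branch point to sterols and to protein prenylation. It read 1929 and 4025 at day 0, 1350 and 1313, 1568 and 1081, 2526 and 1432, 2417 and 1675, and 1985 and 1381 in EPCAM+ cells. The EPCAM- libraries read 850 and 1096, 1064 and 1086, 1885 and 1045, 1638 and 1786, and 1559 and 1107. Its fall from day 0 to control EPCAM- cells was 3.06-fold (log2 difference -1.53; limma adjusted p = 0.0406), and the 2 day 0 values differed by more than 2-fold.

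The remaining genes given in full read at day 0, as replicates 1 and 2, 1918 and 2933 for Sqle, 3697 and 4599 for Cyp51 and 230 and 324 for Tm7sf2. Srebf2 read 5954 and 8654, Stard4 822 and 1267 and Scd2 24665 and 39587. None of these 6 was called against control EPCAM- cells in the fit without the block. Srebf2 and Stard4 came closest, with limma adjusted p of 0.0681 and 0.0739.

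The count of 7 was 0 without day 0 replicate 2, 0 without EPCAM- replicate 1, 3 without EPCAM- replicate 2 and 1 when only the compared groups were fitted. With the replicate block 14 genes fell, against 4.31% of all genes: 12 sterol enzymes, Srebf2 and Stard4. Voom called 6, leaving out Fdps.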

How the data were processed

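RNA sequencing values were deposited as a table of normalised read counts for 22 libraries; per the labels' protocols, RNA was extracted with RNeasy micro, and libraries were made with Ovation Solo and sequenced on a NovaSeq. The submitters' processing notes name FastQC, Trimmomatic, STAR, Picard, HTSeq and GRCm38/mm10. The deposited values are treated as a score: counts that the authors scaled to a common total per library and rounded to whole numbers, as the values themselves show. Dividing by the step of each library (2.02 to 3.30 units per read) returned whole reads for 99.64% to 99.91% of values.

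The 29 genes and all lists were chosen with earlier results of these data known. Values were log2(value + 1) transformed, genes with at least 10 in at least 2 libraries were kept (19569), and 11 group means were fitted over all 22 libraries with limma 3.58.1 (R 4.3.3; trended, robust empirical Bayes; 11 residual degrees of freedom). Benjamini-Hochberg adjustment ran over all genes tested, per comparison. Log2 differences come from this fit and understate the change of low genes. Changes written as a fold are instead ratios of the mean normalised counts of the groups, so the 2 can differ. The test was checked on simulated data with independent libraries and no shared replicate effect. Its pass mark was set on larger changes than the falls between fractions. The check therefore does not show how the test behaves with the shared deviations of these libraries. Voom on the recovered reads was the alternative count test. Other alternatives were median-of-ratios scaling, a pseudocount of 5, no filter, only the compared groups, the replicate number as a block, pairing of fractions within a line, and leaving out each library.

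The labels' batch tag carries the replicate number, so same-numbered libraries share a batch name. Deviations from group means correlated above 0.1 in 36 of 55 pairs of groups (median 0.15, from -0.13 to 0.38; 0.17 to 0.38 between the fractions of a line). Every library value is given for genes called in at least 1 comparison (at most 8 per group of comparisons, by adjusted p) and for the gene of highest mean in each list. From each other list up to 4 called genes per comparison are named. Msmo1, Insig1, Sc5d, Scd1 and Fasn are described beyond that rule, chosen after their values were seen. Gene positions are from GENCODE M21 (GRCm38). The position and sequence of Stard4 and 1 further element of the genotype are not reported here.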

Additional observations from a re-analysis of the deposited data

How the results depend on the processing

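No called result reversed its direction under the alternatives run. Of 774 alternative values of counts and list medians, 714 stayed within the limit (1.5 times for a count, the replicate SD for a median) and 60 moved. Of 314 alternative values for single called genes, 220 stayed called and 94 kept their direction without passing. Median-of-ratios scaling, a pseudocount of 5, no filter and voom moved no count of calls among the 29 genes past 1.5 times. Over all genes, the Nfatc1 count against control went from 9 to 22 with a pseudocount of 5 and to 20 without the filter, and in EPCAM+ cells from 0 to 1 with a pseudocount of 5. Without the filter the fraction counts went from 56 to 86 (Klf5) and 57 to 86 (Creb3l1), those against control in EPCAM- cells from 30 to 61 (Klf5), 0 to 4 (Nfatc1) and 51 to 79 (Creb3l1), that of Creb3l1 in EPCAM+ cells from 38 to 66 and that against day 0 in EPCAM+ cells from 0 to 2. With voom the EPCAM+ counts went from 80 to 39 (Pitx1), 10 to 5 (Klf5) and 38 to 15 (Creb3l1), and the EPCAM- count of Klf5 from 30 to 11. With only the compared groups fitted they went from 838 to 454 (Pitx1, mean of fractions), 109 to 7 (Klf5), 9 to 0 (Nfatc1), 185 to 75 (Creb3l1) and 393 to 158 (control EPCAM- against day 0). In that fit the counts in EPCAM+ cells went from 80 to 2 (Pitx1), 10 to 0 (Klf5) and 38 to 7 (Creb3l1), those in EPCAM- cells from 179 to 0, 30 to 0, 0 to 1 (Nfatc1) and 51 to 31, and those between fractions from 126 to 0 (control), 62 to 13 (Pitx1), 56 to 0 (Klf5) and 84 to 0 (Nfatc1).

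With the fractions paired by line and replicate (replicate block by line), the count of genes called went from 8 to 18 over the 5 lines, and from 0 in each line to 7 (control), 6 (Pitx1), 4 (Klf5), 5 (Nfatc1) and 1 (Creb3l1). With the replicate block common to all lines, the counts were 2 for Pitx1 against control, 2 for Klf5, 1 for Nfatc1, 2 for Creb3l1, 1 for Creb3l1 in EPCAM- cells and 14 for control EPCAM- against day 0. The block changed no other count by over 1.5 times. When only the compared groups were fitted, 0 genes were called for Pitx1 and 1 for control EPCAM- against day 0. The cause was not tested.

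Leaving out 1 library gave 3 to 8 genes called between fractions over the 5 lines, 0 to 1 in control alone, 0 to 1 for Pitx1 and 0 to 10 for control EPCAM- against day 0. For that last comparison the sterol median ran from -1.44 to -0.80 and the fatty acid median from -0.78 to -0.11. Against day 0 within EPCAM+ they ran from -1.02 to -0.37 and from -0.84 to -0.10. Between fractions, the Klf5 sterol median ran from -0.72 to -0.028 and the Pitx1 fatty acid median from -0.20 to 0.24. The Klf5 sterol medians against control ran from 0.054 to 0.62 in EPCAM+ and from 0.031 to 0.60 in EPCAM- cells. Fatty acid medians against control ran from -0.32 to 0.091 for Pitx1 in EPCAM+, and in EPCAM- cells from -0.22 to 0.29 for Klf5, -0.13 to 0.38 for Nfatc1 and -0.053 to 0.45 for Creb3l1. With 2 libraries a group, leaving out 1 leaves a lone library assumed to vary like the other groups.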

Other observations

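The other lipid lists, chosen with earlier results known, were read between the fractions against the 6.22% of all genes called there. Of 12 tested genes of cholesterol efflux and storage, Lipa, the lysosomal acid lipase that frees cholesterol from its esters, rose in EPCAM- cells from a mean of 498.2 to 835.4 (log2 difference 0.74 ± 0.11; limma adjusted p = 0.000281). Of 18 fatty acid oxidation genes 2 rose, the electron transfer flavoprotein subunit Etfb by 0.35 and the isomerase Eci2 by 0.25, and 0 fell. Of 25 other fatty acid and lipid synthesis genes the elongase Elovl7 fell (-1.03; means of 452.9 in EPCAM- and 917.2 in EPCAM+) and the dehydratase Hacd1 rose (1.35; means of 110.6 and 47.9). Of 14 genes of the isoprenoid branches Rabggta, a protein prenylation subunit, fell by 0.51. Of 13 genes of SREBP processing and turnover 0 were called (limma; 1 at an unadjusted p below 0.05; 0 by voom).

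Among the knockouts, Fads1, a fatty acid desaturase, rose against the same control libraries by 0.70 in Pitx1 knockout (limma adjusted p = 0.0302) and by 0.75 in Creb3l1 knockout (adjusted p = 0.0494), from a control mean of 2719.5 to 4305.2 and 4499.2. Voom on the recovered reads called 0 of the 25 genes of that list in Creb3l1 knockout, where limma called 0.945% of all genes. Pitx1 knockout also had higher Cpt1a, the carnitine transferase of fatty acid oxidation (0.83), and Hsd17b12 (0.51), and lower Elovl7 (-1.11), Coq2, of ubiquinone synthesis (-0.76), and Nfya, a subunit of NF-Y (-0.61), all below an adjusted p of 0.05. Mylip was called lower there as well, from a mean of 13.5 to 1.5, a level of few reads. These calls in Pitx1 knockout stand against 4.28% of all genes called. Voom called 2 risen and 1 fallen of the 25 other lipid synthesis genes and 1 risen of 18 oxidation genes there. It called 1 fallen in each of the isoprenoid (14 genes), SREBP processing (13) and cholesterol efflux and storage (12) lists. Against day 0, control EPCAM- cells of day 8 had lower Elovl7 (-1.38) and higher Hacd1 (2.48), beside 2.01% of all genes called. In that comparison all 12 epithelial markers fell and 6 of 10 mesenchymal markers rose, and voom called 3 risen among those 10.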
